A study of Mus musculus with 2 samples.

Results

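A named set of 8 genes of membrane trafficking and organelle transport supplied 9 of 100 listed splicing events. The authors listed these events as different between mouse embryonic fibroblasts with and without SRSF10, an SR protein that acts in splicing. The members were the rows of these 8 genes (App, Eps15, Rint1, Rab11fip1, Rufy2, Ktn1, Atp2c1 and Atp8a1) out of 96 genes in the table. The set need not hold every trafficking gene of the table. They were found by gene identifier, and 1 of the 9 rows, Atp8a1, carried another spelling of its symbol. Ktn1 had 2 rows. The wild-type (WT) and the SRSF10-deficient (KO) group each held 1 library of poly(A) RNA from embryonic fibroblasts, a cultured cell that can be driven towards adipocytes, the setting named in the series title. The sources used here do not say how the deficient cells were made or from how many embryos or lines each library came. Expression of fibroblast markers and of Srsf10 was not analysed here, so cell type and genotype rest on the labels.

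Proteins reach their organelle in vesicles that bud, travel along the cytoskeleton, tether and fuse. Coat adaptors pick the cargo, Rab GTPases and their effectors give each vesicle its identity, tethering complexes catch it, motor receptors link organelles to microtubules, and ion pumps and lipid flippases set the chemistry of the membranes. Many of these genes make several proteins by alternative splicing, which can add or remove a binding site without changing the rest of the protein. SR proteins bind exons of the precursor RNA and can favour their inclusion or their skipping.

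The table gave for each event the inclusion level, which is the percentage of transcripts that carry the alternative part, as the authors' estimate with an interval. It also gave the reads of each library by class: inclusion only, exclusion only, both isoforms or neither. Of the members, 7 were cassette exons, 1 was an alternative 3′ splice site (Rufy2) and 1 was a pair of mutually exclusive exons (Atp8a1). Inclusion was higher in the KO library in 7 and lower in 2, beside 55 higher and 45 lower in the whole table. The absolute difference had a median of 34.0 points in the members (27 to 65) and 33.5 points over all 100 events (20 to 66). Because the table lists events that differed between these same libraries, the size of a difference is a description and its test is no independent support.

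Counting those reads that fitted a single isoform (exclusive reads), 7 of the 9 members passed Fisher's exact test with adjustment over the 100 events. Of these, 6 were higher in the KO library (App, Eps15, Rint1, Rufy2, the 72-nt exon of Ktn1 and Atp8a1) and 1 was lower (the 116-nt exon of Ktn1). Rab11fip1 and Atp2c1 did not pass. Among all 100 events 86.0% passed, 49.0% in the higher and 37.0% in the lower direction, so a passing event is the usual case here and not a property of these genes. Since each genotype had 1 library, the test compares those libraries and not the genotypes, and no difference has a replicate check. Intervals cover counting error at most. The exact intervals and the test take each read as an independent molecule, which amplified reads are not. Those intervals can thus be too narrow and the p-values too small.

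Depth was uneven. App alone supplied 1542 of the 1787 exclusive reads of all members in the WT library and 1618 of 1949 in the KO library. The other events rested on 5 to 101 exclusive reads in WT and on 6 to 180 in KO. At least 20 exclusive reads in each library were found in 5 of the 9 members and in 68 of all 100 events. Those 5 members passed as well, where 63.0% of all events had that depth and passed. Deposited intervals that do not overlap were found in 6 members, beside 83.0% of all events.

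**Figure D1:**
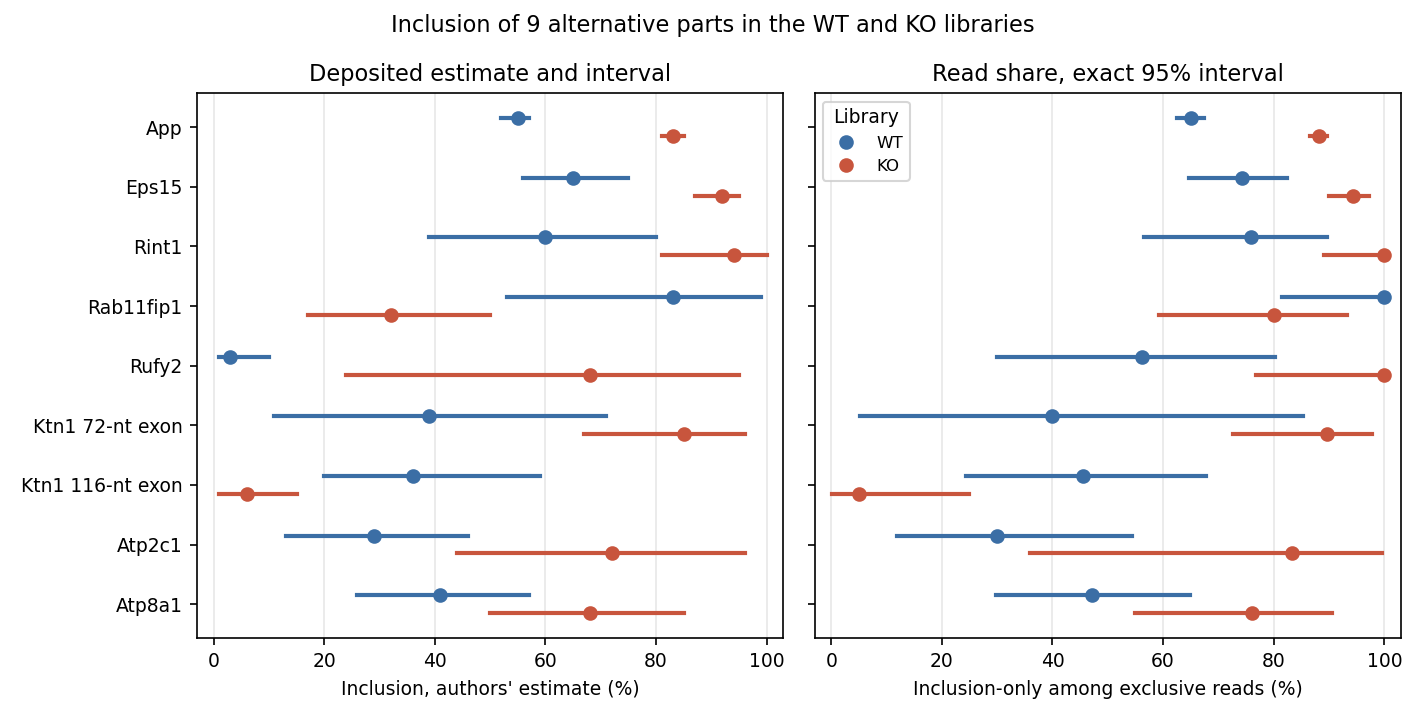
Inclusion of the 9 alternative parts in the WT (blue) and KO (red) library, 1 library each. The left panel shows the authors' estimate in percent with the deposited interval as a line, the right panel the percentage of inclusion-only among exclusive reads with its exact 95% interval. App, Eps15, Rint1 and Rufy2 lie to the right in KO with separate intervals in the left panel, the Rab11fip1 and 116-nt Ktn1 points lie to the left, and the WT and KO intervals of the 72-nt Ktn1 exon, Atp2c1 and Atp8a1 overlap.

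App encodes the amyloid precursor protein, a transmembrane protein that is carried through the secretory and endocytic pathways and cleaved there by secretases. Its event is a 57-nt exon at chr16:85040496-85040552 (mm9, minus strand), exon 8 of 18 in the GENCODE transcript App-206. The whole exon is coding and its length is a multiple of 3. It is shown because its presence separates 2 full-length proteins, and the capitals mark the bases of codons that the exon's edges split:
App: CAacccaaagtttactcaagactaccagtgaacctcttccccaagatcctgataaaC

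With the exon, App-206 encodes 770 residues, and without it the same transcript encodes 751, as does the annotated transcript App-202. The exon accounts for residues 345 to 364, directly after the 168-nt exon of the Kunitz-type protease inhibitor domain, which lies on both isoforms of this event. The principal form App-201, of 695 residues, matches neither isoform of the event.

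In the WT library 1002 reads fitted inclusion only and 540 fitted exclusion only, and the authors' inclusion estimate was 55% (interval 52% to 57%). In the KO library the reads were 1426 and 192 and the estimate was 83% (81% to 85%). Inclusion of the exon rose by 28 points (Fisher's exact test, adjusted p = 5.04e-53). The share of inclusion-only reads went from 65.0% (exact 95% interval 62.5% to 67.4%) to 88.1% (86.5% to 89.7%). App had the most exclusive reads of the whole table, and its interval was 4 to 5 points wide. Only 9 reads in WT and 5 in KO fitted both isoforms, while 1461 and 1219 fitted neither.

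Eps15 encodes an adaptor of clathrin-mediated endocytosis. It carries EH domains at its start, DPF tripeptides that bind the AP-2 complex, and ubiquitin-interacting motifs at its very end. The event is a 182-nt exon at chr4:109055390-109055571 (mm9, plus strand), exon 24 of 25 in Eps15-202. It is shown because it holds the last DPF tripeptides of the protein, whose codons are in capitals:
Eps15: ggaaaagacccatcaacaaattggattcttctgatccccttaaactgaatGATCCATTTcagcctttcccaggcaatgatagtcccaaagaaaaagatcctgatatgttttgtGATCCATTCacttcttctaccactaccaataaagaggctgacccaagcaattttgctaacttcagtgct

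The exon encodes residues 789 to 849 of 897, a segment of 61 residues. Translation of Eps15-202 gave 13 DPF tripeptides, of which 2 lie in this exon and 0 after it. Its length is not a multiple of 3. Removing it from the transcript leaves 788 residues of the protein followed by 3 changed residues and a stop codon in the last exon, for a protein of 791 residues. The loss is then 106 residues, among them the end of the protein with its ubiquitin-interacting motifs. The 1 annotated transcript that skips the exon (Eps15-211) has an incomplete coding sequence.

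Reads for inclusion and exclusion were 75 and 26 in WT, with an estimate of 65% (56% to 75%). In KO they were 170 and 10, with an estimate of 92% (87% to 95%). Inclusion rose by 27 points (Fisher's exact test, adjusted p = 2.32e-05). The share of inclusion-only reads went from 74.3% (64.6% to 82.4%) to 94.4% (90.0% to 97.3%). Skipping, which shifts the reading frame, was thus the minor form in both libraries and lower in KO. Unlike App, most reads fitted both isoforms, 454 of 714 in WT and 662 of 1057 in KO, over a last exon of 2499 nt in the table.

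Rint1 encodes a subunit of the tethering complex with ZW10 and NBAS that receives vesicles at the endoplasmic reticulum, and the protein was first found as a partner of RAD50. Its event is a 174-nt exon at chr5:23311128-23311301 (mm9, plus strand), exon 5 of 15 in Rint1-201. Capitals mark the bases of codons split by the exon's edges:
Rint1: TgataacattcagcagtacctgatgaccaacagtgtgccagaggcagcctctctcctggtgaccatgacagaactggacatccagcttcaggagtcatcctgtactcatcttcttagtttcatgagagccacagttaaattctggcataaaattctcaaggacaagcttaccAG

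All of it is coding. The form with the exon has 792 residues and the form without it 734, the length of the annotated skipping transcript Rint1-203, so skipping removes 58 residues and keeps the frame. In WT 22 reads fitted inclusion and 7 exclusion, and in KO 32 and 0. The KO count of 0 allows an exclusion share of up to 9.38%. The estimate was 60% (39% to 80%) in WT and 94% (81% to 100%) in KO. Inclusion of the exon rose by 34 points (Fisher's exact test, adjusted p = 0.00639).

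Rab11fip1 encodes a Rab11 effector of recycling endosomes, with a membrane-binding C2 domain near its start and a Rab11-binding domain at its end. The alternative part is the largest coding exon among the members, 1563 nt at chr8:28262069-28263631 (mm9, minus strand), exon 4 of 6 in Rab11fip1-202. It encodes residues 537 to 1058 of 1166, or 44.8% of the protein. Without it the protein has 645 residues, the length given for Rab11fip1-201, and the 108 residues after the exon are read in the same frame. Both forms keep the start and the end of the protein.

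The authors' estimate was 83% (53% to 99%) in WT and 32% (17% to 50%) in KO, a difference of -51 points with intervals that do not overlap. The reads behind it were few. In WT 18 reads fitted inclusion and 0 exclusion, a count that allows exclusion at up to 16.7%, and in KO 20 fitted inclusion and 5 exclusion. The difference missed the threshold on exclusive reads (adjusted p = 0.0697, Fisher's exact test), and in the share of inclusion-only reads it was -20.0 points. No correction for exon length enters that share, and a long exon can hold far more reads than the exclusion junction, so both measures are on unlike scales.

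Rufy2 encodes a protein of early endosomes with a RUN domain, which contacts small GTPases, near its start and a lipid-binding FYVE domain at its end. Its event is an alternative 3′ splice site on chromosome 10 (mm9, plus strand), where the longer exon begins 1711 nt upstream of the 120-nt core exon, at 62465694. The start of that extension is shown through its first stop codon in frame, in capitals (chr10:62465694-62465802):
Rufy2: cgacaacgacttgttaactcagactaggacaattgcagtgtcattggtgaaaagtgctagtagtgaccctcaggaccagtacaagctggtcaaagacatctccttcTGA

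Use of the core splice site gives Rufy2-202, with 606 residues. After the upstream exon, which ends at residue 401, the extension adds 36 residues of its own and then a stop, for a protein of 437 residues that lacks the FYVE end. Of 3 annotated transcripts that use the upstream splice site, 2 end within the extension as a last exon (1521 and 1494 nt), and 1, annotated for nonsense-mediated decay, runs on through the core as a 1831-nt exon as in the table. The inclusion reads do not tell these apart.

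In WT 9 reads fitted inclusion and 7 exclusion, and in KO 14 and 0, so an exclusion share of up to 21.4% (3 counts) is allowed in KO. The estimate of the longer exon was 3% (1% to 10%) in WT and 68% (24% to 95%) in KO, the largest difference of the members and the 4th of the table by size. It rose by 65 points in that estimate and passed (Fisher's exact test, adjusted p = 0.0116). The KO interval was 71 points wide. By share of inclusion-only reads the values were 56.2% (29.9% to 80.2%) and 100% (76.8% to 100%), a difference of 43.8 points. The WT interval of that share lay wholly above the deposited one (1% to 10%). As at Rab11fip1, the share makes no allowance for length. The 1711-nt extension can hold far more reads than the exclusion junction, so estimate and share are on unlike scales. What part length has in the 65-point difference was not tested. No read fitted both isoforms in either library.

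Ktn1 encodes kinectin, a coiled-coil protein of the endoplasmic reticulum membrane that binds the motor kinesin. It is the 1 member gene with events in both directions. The 72-nt exon at chr14:48345604-48345675 (mm9, plus strand) is exon 36 of 42 in Ktn1-201, and the 116-nt exon at chr14:48353830-48353945 lies further along the gene, exon 39 of 40 in Ktn1-223. Both are shown because they alter the protein in different ways. Of the 116-nt exon the coding part is printed, with its stop codon in capitals, while the 72-nt exon holds whole codons and no capitals:
Ktn1 72-nt exon: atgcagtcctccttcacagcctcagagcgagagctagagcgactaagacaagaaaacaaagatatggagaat
Ktn1 116-nt exon: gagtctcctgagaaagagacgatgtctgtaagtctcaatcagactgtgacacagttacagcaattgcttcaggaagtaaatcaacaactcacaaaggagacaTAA

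The 72-nt exon encodes 24 residues, 1154 to 1177 of 1327. Removing it from Ktn1-201 leaves 1303 residues in the same frame, a length that no annotated transcript skipping the exon has. Of these 24 residues 6 are acidic, 4 are basic and 0 are proline. It is held by 10 annotated transcripts and skipped by 10. The 116-nt exon replaces the end of kinectin instead. With it the last 34 residues come from its 102 coding bases, and without it the last exon supplies 11 other residues. A further 8 annotated transcripts use the same 3′ splice site with an exon of 110 nt (6 transcripts) or 112 nt (2 transcripts), which the event does not describe.

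Inclusion of the 72-nt exon rested on 2 inclusion and 3 exclusion reads in WT and on 26 and 3 in KO. The estimate was 39% (11% to 71%) in WT and 85% (67% to 96%) in KO, with overlapping intervals. It rose by 46 points (Fisher's exact test, adjusted p = 0.0354), but division of the inclusion reads by 2 ended the call (adjusted p = 0.0725, Fisher's exact test). That division allows for the 2 junctions of an included cassette exon, and the difference in read share was 56.2 points with it and 49.7 points without. With 5 exclusive reads in WT the share of inclusion-only reads, 40.0%, has an exact interval of 5.27% to 85.3%. Exclusion reads numbered 3 in both libraries, so the libraries differed in the inclusion reads.

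At the 116-nt exon the order was the opposite. WT had 10 inclusion and 12 exclusion reads, and KO had 1 and 19. The estimate was 36% (20% to 59%) in WT and 6% (1% to 15%) in KO. Inclusion fell by 30 points (Fisher's exact test, adjusted p = 0.00708). This call, too, ended under that division (adjusted p = 0.0875, Fisher's exact test), with a share difference of -24.4 points in place of -40.5. Halved counts were rounded up to whole reads, however, so the 1 KO inclusion read stayed 1 while the WT reads were halved. Whether the call also ends without that rounding was not tested. The share of inclusion-only reads went from 45.5% (24.4% to 67.8%) to 5.0% (0.127% to 24.9%). Whether both changes fall on the same kinectin transcripts cannot be read from these counts, since each event is counted on its own.

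Atp2c1 encodes the Golgi pump for calcium and manganese, whose human gene is mutated in Hailey-Hailey disease. Its event is a 68-nt exon at chr9:105396745-105396812 (mm9, minus strand), exon 2 of 28 in Atp2c1-204. Its last 6 nt are coding, so the exon supplies the start codon and 2 of 918 residues, and the rest of it is untranslated. In the annotated skipping transcript with a complete coding sequence, Atp2c1-205, translation begins in the next exon at residue 17 of the 918-residue form. Atp2c1-205 encodes 669 residues and shares 0 end residues with that form, so it differs at its end as well. The exon thus bears on where the pump begins.

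The estimate was 29% (13% to 46%) in WT and 72% (44% to 96%) in KO, a difference of 43 points with overlapping intervals. WT had 6 inclusion and 14 exclusion reads, and KO had 5 and 1. This difference missed the threshold (adjusted p = 0.0605, Fisher's exact test). The share of inclusion-only reads was 30.0% (11.9% to 54.3%) in WT and 83.3% (35.9% to 99.6%) in KO. KO had 6 exclusive reads, the lowest KO number among the members.

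Atp8a1 encodes a P4-type ATPase that moves phosphatidylserine to the cytosolic side of membranes. Its 2 mutually exclusive exons are each 74 nt long, each is exon 7 of 37, and both lie on chromosome 5 (mm9, minus strand). The upstream exon, at chr5:68172227-68172300, is that of Atp8a1-202, and the downstream exon, at chr5:68170199-68170272, is that of Atp8a1-201. Capitals mark the bases at which they differ:
Atp8a1 upstream exon: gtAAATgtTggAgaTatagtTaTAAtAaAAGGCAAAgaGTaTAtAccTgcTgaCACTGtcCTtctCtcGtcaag
Atp8a1 downstream exon: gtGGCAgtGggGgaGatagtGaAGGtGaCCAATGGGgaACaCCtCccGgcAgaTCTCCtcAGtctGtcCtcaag

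Base by base 38 of 74 positions are the same (51.4%). Each encodes residues 151 to 175 of a 1164-residue protein, 13 of these 25 residues are the same, and the proteins differ at 12 residues in all. The choice between the exons therefore exchanges a segment and changes no length. GC content is 36.5% in the upstream and 58.1% in the downstream exon.

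Reads for the upstream exon numbered 16 in WT and 19 in KO, and those for the downstream exon 18 and 6. The estimate for the upstream exon was 41% (26% to 57%) in WT and 68% (50% to 85%) in KO, with overlapping intervals. Use of the upstream exon rose by 27 points (Fisher's exact test, adjusted p = 0.0398). The authors' Bayes factor was 3.7, the lowest of the members. Nearly all reads over this event, 1575 of 1630 in WT and 1335 of 1384 in KO, fitted neither isoform.

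**Figure D2:**
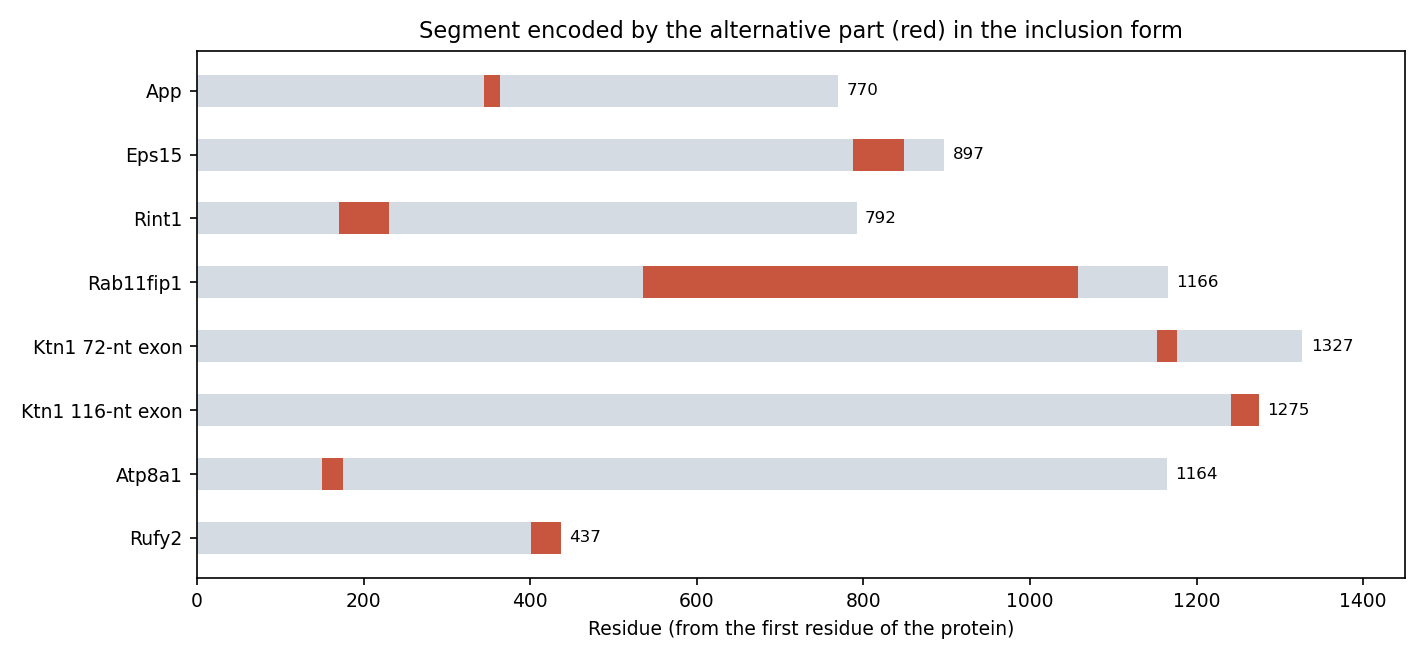
Segment encoded by the alternative part (red) within the inclusion form of each protein (grey), in residues from the start, to scale, with the total length at the right. The Rab11fip1 segment covers residues 537 to 1058 of 1166, those of Rufy2 and the 116-nt Ktn1 exon form the end of the protein, and the others lie inside it. Atp2c1, whose exon encodes 2 residues, is not drawn, and for Atp8a1 the upstream exon is shown.

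Across the members the alternative parts therefore fell into several kinds. In App, Rint1, Rab11fip1 and the 72-nt exon of Ktn1 the part adds a segment in frame (19, 58, 521 and 24 residues). In Eps15, Rufy2 and the 116-nt exon of Ktn1 it sets the end of the protein. Atp8a1 exchanges a segment, and the Atp2c1 exon holds the start codon of its inclusion form. Of the 7 cassette exons, 4 had a length divisible by 3.

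Purine-rich letters were searched in the cassette exons on both strands, as AGAGA and as GAAGAA, matches of which may overlap in part. AGAGA was found on the transcript strand in both cassette exons that were lower in KO, 5 times in the long exon of Rab11fip1 and 1 time in the 116-nt exon of Ktn1, and in 0 of the 5 that were higher. In all placed cassette exons of the table it was found in 15 of 64 (23.4%), 8 of 26 lower and 7 of 38 higher ones. On the other strand it occurred in 2 of 7 member exons and 12 of 64 in all. GAAGAA was found on the transcript strand in 1 of 7 member exons (Rab11fip1) and in 11 of 64 in all (17.2%), and on the other strand in 2 of 7 and in 4 of 64 (6.25%). Exon lengths differ widely, and a long exon has more places for such letters.

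The share of reads that fitted neither isoform ranged from 18.5% (Rab11fip1) to 96.6% (Atp8a1 and the 72-nt Ktn1 exon) in WT and from 11.8% to 96.5% in KO. Its median was 71.0% and 73.3% in the members, against 47.0% and 49.4% over all events. A share of at least 9 in 10 was found for 5 events in WT and 7 in KO. Atp8a1 has the shortest exclusion isoform of the members, 185 nt, the 2nd shortest of the 72 cassette and mutually exclusive events drawn with plain exons, and the 72-nt Ktn1 exon reached the same WT share at 403 nt. Atp2c1 had 71.0% in WT and 80.0% in KO at 1282 nt, while App had 48.5% and 42.9% at 302 nt, so the members did not order by length. Over those 72 events the share and the length of the exclusion isoform had a Spearman correlation of -0.45 in WT and -0.48 in KO, a description over events that share their libraries. The table drew the exon before the 72-nt Ktn1 exon as 319 nt, where Ktn1-201 has 93, the exon after that of Atp2c1 as 1041 nt, where Atp2c1-204 has 111, and the exon after the 116-nt Ktn1 exon as 1222 nt, where Ktn1-223 has 192. The part of isoform length or of these outlines in the inclusion estimates was not tested.

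**Figure D3:**
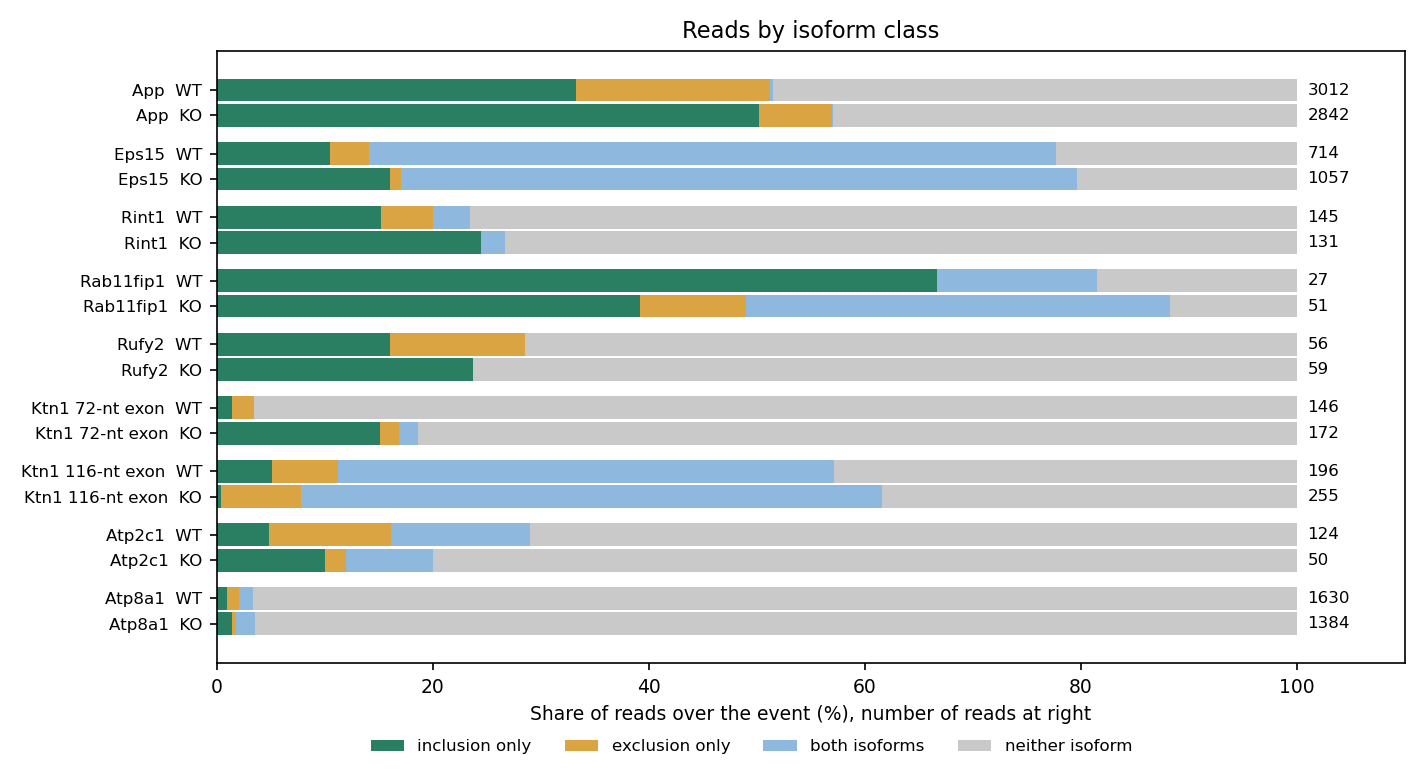
Reads over each event by class, as a percentage of all reads over it, for the WT and the KO library, with the number of reads at the right. Green is inclusion only, yellow exclusion only, blue both isoforms and grey neither. Grey takes 96.6% of WT and 96.5% of KO reads at Atp8a1, while blue is the largest class at Eps15 in both libraries.

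Reads over the event, the sum of all 4 classes and so not independent of the reads behind inclusion, were set against each other after division by 0.937, the median KO to WT ratio of the table's genes. They are no measure of gene expression by themselves, because an event covers a few exons. In Eps15 the KO library had 1.58 times as many reads as WT (exact 95% interval 1.44 to 1.74), on 1057 and 714 reads. Rab11fip1 stood at 2.02 (1.24 to 3.34) on 51 and 27 reads, and Atp2c1 at 0.43 (0.303 to 0.602) on 50 and 124. The ratio was 1.26 (1.00 to 1.58) and 1.39 (1.15 to 1.68) at the Ktn1 exons, and 0.906 (0.843 to 0.974) at Atp8a1. App at 1.01 (0.956 to 1.06), Rint1 at 0.964 (0.755 to 1.23) and Rufy2 at 1.12 (0.766 to 1.65) had intervals over all reads that include 1. Without the reads that fit neither isoform, App stood at 1.14 (1.06 to 1.22). That value was divided by the median ratio of such reads among the table's genes, and not by 0.937. Fewer cells, less RNA and fewer transcripts per cell cannot be told apart in such bulk counts, and with 1 library per genotype these ratios have no test.

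**Figure D4:**
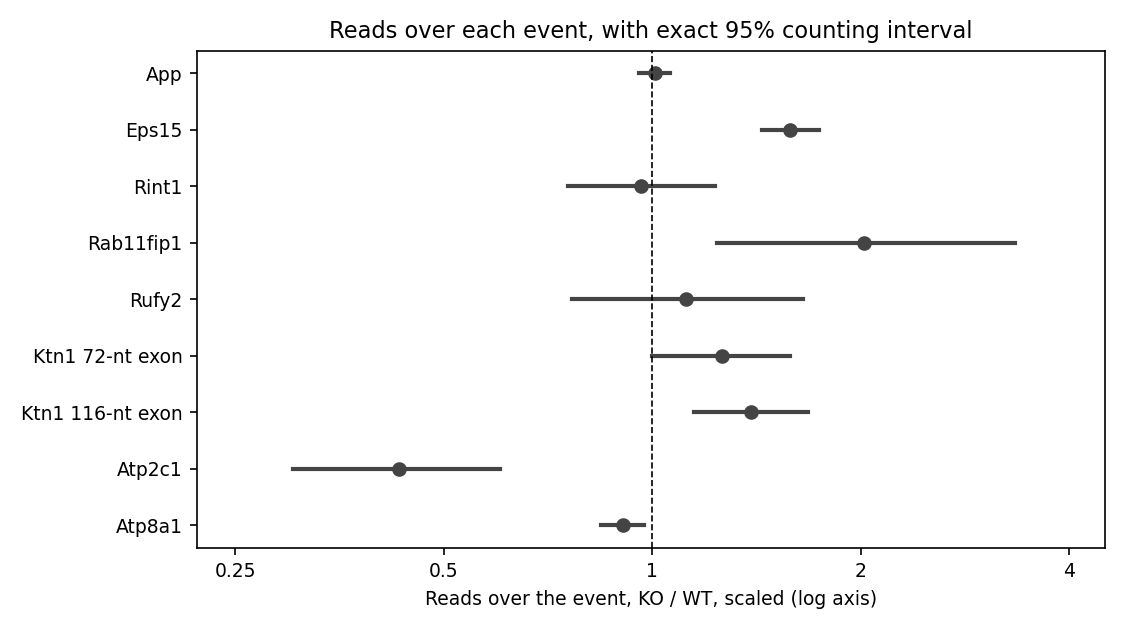
Reads over each event in the KO library divided by those in the WT library, divided by the median of that ratio among the table's genes, on a log axis. Lines are exact 95% intervals for counting error, and the dashed line marks equal reads. Eps15, Rab11fip1 and the 116-nt Ktn1 exon lie above 1 and Atp2c1 and Atp8a1 below it with their whole interval.

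Lists of 320 genes of these pathways, drawn up by function with earlier results of the table known, held 8 genes with an event, and all 8 were members. These were 1 of 55 clathrin and endocytic adaptors (Eps15), 2 of 58 Rab GTPases, effectors and regulators (Rab11fip1 and Rufy2), and 1 of 111 tethers, coats, SNAREs and sorting proteins (Rint1). The others were 1 of 43 motors and motor receptors (Ktn1), 2 of 26 P-type ATPases and flippases (Atp2c1 and Atp8a1), and 1 of 27 genes of the APP family, its secretases and adaptors (App). No other Rab effector, secretase, flippase or tether on these lists had a listed event. That says nothing on whether they were spliced alike in both libraries, since the sources used here do not state the rule by which events were listed. Nor does it show that the members are all trafficking genes with an event, since genes of the table outside these lists may act there too.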

How the data were processed

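Paired-end libraries of poly(A) RNA from WT and SRSF10-deficient fibroblasts were sequenced, 1 library each, per the labels' protocols. The submitters' processing notes name TopHat and mm9. The program behind the inclusion estimates, its settings and the level of its intervals are not stated there. In the deposited table, inclusion is a fraction from 0 to 1 computed by the authors, turned into percent here. The deposited difference is a score (sample 1 minus sample 2), written here as KO minus WT, and the deposited Bayes factor is a ratio. Reads by isoform class are deposited counts. Sample 1 was taken as WT and sample 2 as KO from the labels' descriptions. Reads over all 100 events totalled 56927 in WT and 52735 in KO, of which the members held 6050 and 6001.

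Inclusion-only and exclusion-only reads were compared with Fisher's exact test, two-sided, and p-values were adjusted by Benjamini-Hochberg over 100 events (Python 3.11.15, SciPy 1.17.1), tested on simulated data. Passing meant an adjusted p below 0.05, an inclusion estimate that differed by 10 points or more, and the same direction in those reads. The smallest difference among the 100 events was 20 points, so the minimum of 10 points could exclude none. A share of 0 allows up to 3 counts of the total. Shares carry exact Clopper-Pearson 95% intervals, whose bound for a share of 0 is somewhat wider than those 3 counts.

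Alternative parts were located by exon and intron lengths in the gene's GENCODE M21 transcripts, so no coordinate was converted. This placed 64 of 70 cassette exons, all 7 of the members included. Where several transcripts held a part, a protein-coding, complete and principal one was preferred, then the longest. Sequences and translations come from these transcripts (GRCm38), read along the transcript, while coordinates are those of the table. Protein lengths do not count the stop codon. Members, gene lists and tests were chosen with earlier results of these data known. All 9 member rows are named. Alternatives are given in the closing section.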

Additional observations from a re-analysis of the deposited data

How the results depend on the processing

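Of the 6 members that passed with higher inclusion in KO, 2 passed with Holm adjustment (App and Eps15) and 4 with inclusion reads divided by 2 (App, Eps15, Rint1 and Rufy2). Of the 1 member that passed with lower inclusion, the 116-nt Ktn1 exon, 0 passed with Holm adjustment and 0 with inclusion reads divided by 2. Where non-overlapping deposited intervals replaced the test, 2 were lower, since Rab11fip1 was then called too, and 4 were higher, without the 72-nt Ktn1 exon and Atp8a1. Over all 100 events 36.0% passed with Holm adjustment, 67.0% passed with reads divided by 2 and 83.0% had intervals that did not overlap. Division by 2 is made for cassette exons, and at Atp8a1, where each isoform has 2 junctions, and at Rufy2 it has no such reason. The Atp8a1 call ended under it (Fisher's exact test, adjusted p = 0.0725), with a share difference of 31.7 points in place of 28.9, and so did both Ktn1 calls. Odd counts were rounded up after the division, so the 1 KO inclusion read of the 116-nt Ktn1 exon was not reduced. Holm adjustment ended 5 calls, with values of 0.161 for Rint1, 0.278 for Rufy2, 0.175 for the 116-nt and 0.604 for the 72-nt Ktn1 exon, and 0.604 for Atp8a1 (Fisher's exact test). A minimum of 20 exclusive reads in each library left out 2 passing members, Rufy2 and the 72-nt Ktn1 exon. A minimum difference of 20 points in the read share changed 0 calls.

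The direction of all 9 differences was the same by the share of inclusion-only reads. Counting reads that fitted an isoform, in place of all reads over the event, moved the ratio at the 72-nt Ktn1 exon to 6.96, on 5 reads in WT and 32 in KO, at Atp2c1 to 0.302 and at App from 1.01 to 1.14, where the interval no longer includes 1. These ratios were divided by a median of their own, taken over the same kind of reads, and the App interval depends on that scale. Without scaling the App ratio over all reads was 0.944. Exclusive reads numbered 20 or fewer in at least 1 library for Rab11fip1, Rufy2, Atp2c1, and both Ktn1 exons. No paired analysis was possible because each genotype has 1 library. Leaving out a library was not possible for the same reason. The cause of these dependences was not tested.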
